A study of Mus musculus with 9 samples.

Results

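The 10 genes described here build, sulfate, trim or carry heparan sulfate: Ext1, Ext2, Ndst1, Ndst2, Hs2st1, Hs6st1, Hs3st1, Sulf2, Hpse and Agrn. They were taken by gene symbol from a table of 20635 gene symbols, the offset of 0.0001 that stands for no reads was subtracted, and the deposited CPM values (read counts scaled to library size, by a total that is not given in the sources used here) of all listed transcripts of a gene were summed. Values come from 9 libraries of mouse bone marrow cells in 3 sorted populations, and all 10 genes passed the filter of at least 1 CPM in at least 3 libraries.

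Heparan sulfate is a linear sugar chain built in the Golgi on the core proteins of proteoglycans. A polymerase extends the chain, and sulfotransferases then add sulfate at set positions, which makes binding sites for growth factors, chemokines and matrix proteins. At the cell surface, sulfatases remove some of these sulfates and heparanase cuts the chains. In bone marrow, heparan sulfate proteoglycans are known for holding stem cells in their niche and for presenting chemokines and cytokines to them. Syndecan-2, the protein used for the sort, is itself a heparan sulfate proteoglycan of the cell surface.

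The cells came from the femurs and tibias of C57BL/6J mice aged 10 weeks, with no transgene or treatment named in the labels. The protocol gives male mice and the design text mixed sexes. Marrow was depleted of lineage-positive cells and sorted for c-Kit, Sca-1, absence of lineage markers and absence of CD34 (KSL CD34-), at 10000 cells per replicate. The Syndecan-2+ population (3 libraries) and the Syndecan-2- population (3 libraries) are the parts of this gate with and without surface Syndecan-2, and Parent (3 libraries) is the whole gate. No source used here says that the replicates came from separate animals, so the spread behind each p-value may be technical. Because a library is a bulk sample, fewer cells of a type and less RNA per cell cannot be told apart.

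One CPM stood for 15.5 to 20.6 reads, depending on the library, and a count of 3 reads for 0.146 to 0.194 CPM. Sdc2 itself averaged 4.58 ± 0.571 CPM in the Syndecan-2+ libraries, 0.332 ± 0.137 CPM in the Syndecan-2- libraries and 1.75 ± 0.290 CPM in the Parent libraries (SD, n = 3 each), as the sort labels state. The summed level of 10 long-term stem cell markers was 529 to 620 CPM in the Syndecan-2+ libraries, 241 to 262 CPM in the Syndecan-2- libraries and 310 to 378 CPM in the Parent libraries. Kit, whose protein is part of the gate, was the largest of them, averaging 259, 164 and 196 CPM in these populations. Cd34, whose protein the gate lacks, had transcripts at 44.6 ± 6.36 CPM in the Syndecan-2+ libraries, 203 ± 11.7 CPM in the Syndecan-2- libraries and 174 ± 4.34 CPM in the Parent libraries (SD, n = 3 each). The summed level of 5 progenitor markers was 101 to 147 CPM in the Syndecan-2+ libraries, 1120 to 1216 CPM in the Syndecan-2- libraries and 886 to 943 CPM in the Parent libraries. The sum of 9 plasma cell markers was 595 to 854 CPM in the Syndecan-2+ libraries, 18.2 to 23.7 CPM in the Syndecan-2- libraries, where Igha was at 0, and 147 to 189 CPM in the Parent libraries. Igkc, Igha and Jchain averaged 428, 145 and 116 CPM in the Syndecan-2+ libraries, and Igkc and Jchain 0.507 and 0.365 CPM in the Syndecan-2- libraries. Sdc1 made up most of the Syndecan-2- sums and went the other way, averaging 17.0 CPM there and 3.91 CPM in the Syndecan-2+ libraries. The sum of the 6 listed of 7 megakaryocyte and platelet markers was 285 to 316 CPM in the Syndecan-2+ libraries, 50.2 to 56.9 CPM in the Syndecan-2- libraries and 106 to 115 CPM in the Parent libraries. Syndecan-2+ replicate 3 held 21.0 CPM of Col1a1 and 15.5 CPM of Col1a2, the chains of type I collagen, against at most 2.38 CPM of either in any other library. Syndecan-2+ replicate 2 held 476 CPM of Mpo, the myeloperoxidase gene, against 243 and 233 CPM in the other Syndecan-2+ libraries. The part that these cell types and libraries have in the results below was not tested.

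Between Syndecan-2+ and Syndecan-2- cells the polymerase subunit gene Ext2, the sulfotransferase genes Ndst2, Hs2st1 and Hs3st1 and the proteoglycan gene Agrn were higher, at log2 fold changes of 0.32 to 0.73. The editing genes Hpse and Sulf2 were lower, at -2.02 and -0.51. Ext1, Ndst1 and Hs6st1 did not pass the test. The test was limma on log2(CPM + 1) over 13997 genes with Benjamini-Hochberg adjustment, and a gene was called under an adjusted p of 0.05. On this scale a fold change understates the change of genes at low CPM. Of all genes tested, 20.5% were called higher and 9.51% lower, or 30.0% in either direction. The counts of 5 and 2 among 10 were above those shares, as a description of a chosen set. All 3 Syndecan-2+ libraries lay above all 3 Syndecan-2- libraries for 5 of the 10 genes, beside 29.5% of all genes, and below them for 3, beside 13.0%, or for 42.5% in either direction. The median log2 fold change was 0.06 over the 10 genes and 0.10 over all genes.

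The split of calls depended on scaling. TMM rescaling moved the median of all genes by -0.11 and quantile normalization by -0.11 on the log2 scale. Under TMM rescaling 4 of the 10 genes were called higher and 4 lower, since Hs2st1 lost its call and Ndst1 and Hs6st1 were called lower. Over all genes, 68.3% of calls were higher with the deposited CPM and 50.1% under TMM rescaling, which called 1991 of 13997 genes higher and 1987 lower. Ext2, Ndst2, Agrn, Hpse and Sulf2 kept their calls under each of the 3 rescalings. Under each of them Hs2st1 lost its call and Hs6st1 was called lower, and Hs3st1 lost its call with quantile normalization.

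**Figure D1:**
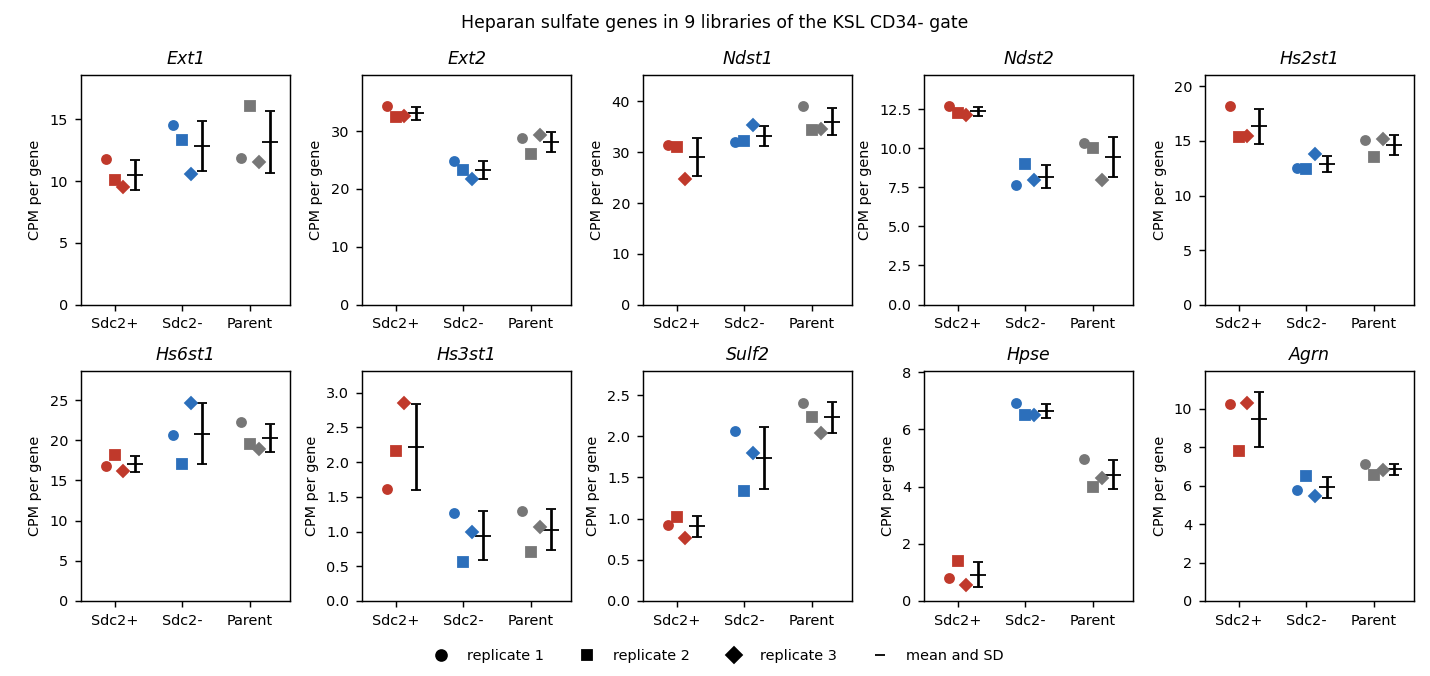
CPM per gene in each of the 9 libraries (y axis, linear from 0), by population (x axis, where Sdc2+ and Sdc2- stand for Syndecan-2+ and Syndecan-2-). Symbols mark the replicate number, and bars give the mean ± SD of 3 libraries; Hpse lies at 0.549 to 1.41 CPM in the Syndecan-2+ libraries, at 6.50 to 6.94 CPM in the Syndecan-2- libraries and at 4.0 to 4.97 CPM in the Parent libraries.

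Ext1 and Ext2 encode the partner subunits of the polymerase that lengthens the chain. Ext2 (ENSMUSG00000027198, chr2:93695631-93822568 of GRCm38, minus strand) had 34.3, 32.4 and 32.6 CPM in the Syndecan-2+ libraries, 24.8, 23.3 and 21.7 CPM in the Syndecan-2- libraries and 28.8, 26.1 and 29.4 CPM in the Parent libraries. Every Syndecan-2+ library lay above every Parent library, and every Parent library above every Syndecan-2- library. Ext2 was higher in Syndecan-2+ cells by 0.49 on the log2 scale against Syndecan-2- cells (SE 0.08, limma adjusted p = 0.000244). Against Parent its log2 fold change was 0.23 and was not called (adjusted p = 0.0760), but it was called higher with the replicate block (limma adjusted p = 0.0389).

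Ext1 (chr15:53064038-53346159, minus strand) had 11.8, 10.1 and 9.55 CPM in the Syndecan-2+ libraries, 14.6, 13.3 and 10.6 CPM in the Syndecan-2- libraries and 11.9, 16.1 and 11.5 CPM in the Parent libraries. The lowest Syndecan-2- and Parent values lay inside the range of the Syndecan-2+ libraries. Its log2 fold change of -0.26 between Syndecan-2+ and Syndecan-2- cells had a 95% interval of -0.57 to 0.04 and was not called (limma adjusted p = 0.196).

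The ratio of Ext2 to Ext1 within a library, each as CPM per kilobase summed over all listed transcripts, does not depend on how libraries are scaled. Its size does depend on shorter transcripts: Ext1-004 (1554 bases, annotated to nonsense-mediated decay) held 21.3% of Ext1 CPM in Syndecan-2+ cells. It averaged 2.24 CPM there, against 8.25 CPM for the coding Ext1-001 of 7663 bases, so Ext1-004 was the larger part of Ext1 per kilobase. Short Ext2 transcripts, such as Ext2-006 of 921 bases, also weigh more than their CPM. The ratio was 6.37, 6.16 and 6.12 in Syndecan-2+ libraries, 4.01, 3.64 and 4.70 in Syndecan-2- libraries and 5.98, 3.92 and 4.66 in Parent libraries. The 3 Syndecan-2+ ratios were the highest of the 9, and Parent replicate 1 came next. The log2 difference was 0.60 between Syndecan-2+ and Syndecan-2- libraries and 0.38 between Syndecan-2+ and Parent libraries. An exact two-sided permutation test gave p = 0.1 for each, the smallest that 3 libraries against 3 allow, and 0.15 after adjustment over the 6 ratio tests. This ratio and the one of Ndst2 to Ndst1 were chosen after their values were seen.

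Ndst1 and Ndst2 encode enzymes that remove acetyl groups from glucosamine and put sulfate in their place, the step on which later sulfation depends. Ndst2 is the form known for making heparin in mouse mast cells. Ndst2 (ENSMUSG00000039308, chr14:20723739-20730327, minus strand) had 12.7, 12.2 and 12.1 CPM in the Syndecan-2+ libraries, 7.62, 8.99 and 7.94 CPM in the Syndecan-2- libraries and 10.3, 10.0 and 7.98 CPM in the Parent libraries. Every Syndecan-2+ library lay above the other 6, while Syndecan-2- and Parent libraries overlapped. Ndst2 was higher in Syndecan-2+ cells by 0.54 on the log2 scale against Syndecan-2- cells (SE 0.13, limma adjusted p = 0.00306). Against Parent its log2 fold change of 0.36 was not called (adjusted p = 0.0582), but it was called with the replicate block (limma adjusted p = 0.0364). The 9 listed of 10 mast cell and basophil markers summed to 54.2 to 93.0 CPM in the Syndecan-2+ libraries, 58.5 to 77.6 CPM in the Syndecan-2- libraries and 73.2 to 76.7 CPM in the Parent libraries, and 0 of the 6 tested were called between any of the populations (limma; 1 of the 6 had an unadjusted p under 0.05 in each comparison). Of the markers below the filter, the mast cell protease gene Mcpt4 had 0, 0.0971 and 0.769 CPM in the Syndecan-2+ libraries, 0 in each of the Syndecan-2- libraries and 0, 0 and 0.0596 CPM in the Parent libraries. The protease gene Cma1 had 0.378, 0.0971 and 0.824 CPM in the Syndecan-2+ libraries, 0, 0 and 0.105 CPM in the Syndecan-2- libraries and 0, 0 and 0.0596 CPM in the Parent libraries. The tryptase gene Tpsb2 had 0.216, 0.194 and 0.494 CPM in the Syndecan-2+ libraries, 0.0529, 0 and 0.210 CPM in the Syndecan-2- libraries and 0, 0.118 and 0.119 CPM in the Parent libraries. Each of these protease genes was highest in Syndecan-2+ replicate 3, and their part in the Ndst2 result was not tested.

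Ndst1, on chromosome 18, had 31.4, 31.1 and 24.8 CPM in the Syndecan-2+ libraries, 32.0, 32.2 and 35.4 CPM in the Syndecan-2- libraries and 39.1, 34.5 and 34.5 CPM in the Parent libraries. Syndecan-2+ replicate 3, the library with the collagen reads, was the lowest of the 9, and the other Syndecan-2+ libraries lay just under the lowest Syndecan-2- one. Ndst1 was lower in Syndecan-2+ cells than in Parent (log2 fold change -0.31, limma adjusted p = 0.0378), and the log2 fold change was -0.20 and not called without that library (limma adjusted p = 0.207). That call was also lost without any 1 Parent library, at log2 fold changes of -0.34 to -0.25. In all, 9 of 22 alternatives ended it, among them no filter, eBayes with no trend and a fit of just the libraries compared. Against Syndecan-2- cells the log2 fold change was -0.19, with a 95% interval of -0.40 to 0.01, and was not called (limma adjusted p = 0.153).

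The ratio of Ndst2 to Ndst1 in CPM per kilobase was 0.742, 0.723 and 0.900 in Syndecan-2+ libraries, 0.437, 0.514 and 0.411 in Syndecan-2- libraries and 0.486, 0.533 and 0.424 in Parent libraries. The 3 Syndecan-2+ ratios did not overlap the other 6. The log2 difference was 0.80 between Syndecan-2+ and Syndecan-2- libraries and 0.71 between Syndecan-2+ and Parent libraries, again at the smallest exact permutation p of 0.1 (0.15 adjusted). Between Syndecan-2- and Parent libraries it was -0.08, with overlapping values (exact permutation p = 0.6).

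Hs2st1, Hs6st1 and Hs3st1 place sulfate on the uronic acid, on the outer carbon of glucosamine and on the rare glucosamine position that creates the antithrombin binding site. Hs2st1 (chr3:144429706-144570181, minus strand) had 18.2, 15.4 and 15.4 CPM in the Syndecan-2+ libraries, 12.5, 12.4 and 13.8 CPM in the Syndecan-2- libraries and 15.1, 13.5 and 15.2 CPM in the Parent libraries. Syndecan-2+ replicate 1 was the highest, and the other Syndecan-2+ libraries lay close to Parent. Hs2st1 was higher in Syndecan-2+ cells by 0.32 on the log2 scale against Syndecan-2- cells (SE 0.11, limma adjusted p = 0.0335). The call did not hold when Syndecan-2+ replicate 1, or Syndecan-2- replicate 1 or 2, was left out, with log2 fold changes of 0.24 to 0.30. Against Parent the log2 fold change was 0.15 and not called (limma adjusted p = 0.412).

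Hs6st1 (chr1:36068400-36106446, plus strand) had 16.8, 18.1 and 16.2 CPM in the Syndecan-2+ libraries, 20.7, 17.1 and 24.7 CPM in the Syndecan-2- libraries and 22.3, 19.6 and 18.9 CPM in the Parent libraries. Syndecan-2- replicate 2 lay inside the range of Syndecan-2+ libraries, while all 3 Parent libraries lay above that range. The log2 fold change of -0.26 between Syndecan-2+ and Syndecan-2- cells had a 95% interval of -0.51 to -0.01 before adjustment and was not called (limma adjusted p = 0.112). Without Syndecan-2- replicate 2 it was -0.39 and was called (limma adjusted p = 0.0196). It was also called under each of the 3 rescalings, at -0.38 to -0.32 (limma adjusted p = 0.0193 to 0.0498).

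Hs3st1 (ENSMUSG00000051022, chr5:39613935-39755475, minus strand) had 1.62, 2.17 and 2.86 CPM in the Syndecan-2+ libraries, 1.26, 0.559 and 0.999 CPM in the Syndecan-2- libraries and 1.29, 0.706 and 1.07 CPM in the Parent libraries. These values rest on 30 to 52 reads per Syndecan-2+ library, 11 to 24 per Syndecan-2- library and 12 to 20 per Parent library. All 3 Syndecan-2+ libraries lay above the other 6, with replicate 3 the highest. Hs3st1 was higher in Syndecan-2+ cells by 0.73 on the log2 scale against Syndecan-2- cells (SE 0.22, limma adjusted p = 0.0181) and higher than in Parent by 0.66 (limma adjusted p = 0.0479). Without Syndecan-2+ replicate 3 the values were 0.59 and 0.52, and neither was called (limma adjusted p = 0.0923 and 0.201). The call between the sorted fractions was also lost without Syndecan-2- replicate 2 (0.58), and the call against Parent in 15 of 21 alternatives.

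Hpse encodes heparanase, the endoglycosidase that cuts heparan sulfate chains and is known in platelets, neutrophils and other blood cells. Hpse (ENSMUSG00000035273, chr5:100679484-100719716, minus strand) had 0.809, 1.41 and 0.549 CPM in the Syndecan-2+ libraries, 6.94, 6.50 and 6.52 CPM in the Syndecan-2- libraries and 4.97, 4.0 and 4.29 CPM in the Parent libraries. Those levels stand for 10 to 29 reads per Syndecan-2+ library, 124 to 131 per Syndecan-2- library and 68 to 77 per Parent library. The 3 populations did not overlap in any pair.

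In mean CPM, Hpse was 7.22-fold lower in Syndecan-2+ than in Syndecan-2- cells and 4.79-fold lower than in Parent. On the log2(CPM + 1) scale the fold changes were -2.02 (SE 0.18, limma adjusted p = 1.80e-07) and -1.52 (limma adjusted p = 1.3e-05). Both calls held under each of the 21 alternatives run, at -2.81 to -0.98 against Syndecan-2- cells, with the pseudocounts of 0.1 and 5 at the ends of that range. Syndecan-2+ replicate 2 had the highest Hpse of its population and also the most Mpo and Csf1r (the macrophage growth factor receptor, 2.25 CPM against 0.931 and 1.08 CPM in the other Syndecan-2+ libraries). Without that library the log2 fold change against Syndecan-2- cells was -2.19. The 9 listed of 10 neutrophil, monocyte and macrophage markers summed to 285 to 573 CPM in the Syndecan-2+ libraries, 765 to 960 CPM in the Syndecan-2- libraries and 642 to 824 CPM in the Parent libraries. Mpo alone made up most of these sums, with 243, 476 and 233 CPM in the Syndecan-2+ libraries. Of the 7 tested, 5 were lower in Syndecan-2+ than in Syndecan-2- cells, beside 9.51% of all genes. Elane, the neutrophil elastase gene of that list, had 25.4, 55.6 and 23.2 CPM in the Syndecan-2+ libraries and 20.01, 28.6 and 21.8 CPM in the Syndecan-2- libraries. Its log2 fold change of 0.45 was not called (limma adjusted p = 0.182) but was called higher with the replicate block (limma adjusted p = 0.00356). All 5 progenitor markers were lower, as Hpse was, and all 5 tested megakaryocyte and platelet markers were higher, beside 9.51% lower and 20.5% higher of all genes. The part of these markers in the Hpse result was not tested.

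Sulf2 encodes an extracellular sulfatase that removes sulfate from the outer carbon of glucosamine in finished chains. Sulf2 (chr2:166073089-166155663, minus strand) had 0.924, 1.02 and 0.769 CPM in the Syndecan-2+ libraries, 2.07, 1.33 and 1.80 CPM in the Syndecan-2- libraries and 2.41, 2.23 and 2.04 CPM in the Parent libraries. Each Syndecan-2+ library lay below the other 6. With 14 to 21 reads per Syndecan-2+ library, 26 to 39 per Syndecan-2- library and 34 to 38 per Parent library, it was among the least covered of the set. Sulf2 was lower in Syndecan-2+ cells than in Parent (log2 fold change -0.76, limma adjusted p = 0.00878). The call against Parent held in 20 of 21 alternatives and was lost with the top transcript (-0.40, limma adjusted p = 0.438). Against Syndecan-2- cells the log2 fold change of -0.51 (SE 0.19) passed narrowly (limma adjusted p = 0.0487). That call ended in 14 of 21 alternatives, with adjusted p of 0.00881 to 0.624 over all of them. Leaving out any 1 of the 9 libraries ended it, except Syndecan-2- replicate 2, and the values without 1 library were -0.62 to -0.43.

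Agrn encodes agrin, a large secreted core protein that carries heparan sulfate in basement membranes and that hematopoietic cells meet on marrow stroma. Agrn (ENSMUSG00000041936, chr4:156165290-156197488, minus strand) had 10.3, 7.81 and 10.3 CPM in the Syndecan-2+ libraries, 5.77, 6.50 and 5.47 CPM in the Syndecan-2- libraries and 7.13, 6.56 and 6.83 CPM in the Parent libraries. Syndecan-2+ replicate 2 was the lowest of its population and still above every other library, and each Parent library lay above each Syndecan-2- library. Agrn was higher in Syndecan-2+ cells by 0.59 on the log2 scale against Syndecan-2- cells (SE 0.14, limma adjusted p = 0.00366). Against Parent the log2 fold change of 0.41 was not called (adjusted p = 0.0565), but it was with the replicate block (limma adjusted p = 0.0431) and without Syndecan-2+ replicate 2 (0.53, limma adjusted p = 0.0237). The 4 listed of 6 stromal markers summed to 12.7 to 44.5 CPM in the Syndecan-2+ libraries, 30.1 to 34.4 CPM in the Syndecan-2- libraries and 24.5 to 33.1 CPM in the Parent libraries. The upper end of the Syndecan-2+ range was replicate 3. Both tested members were called in opposite directions between Syndecan-2+ and Syndecan-2- cells, Col1a2 higher at 2.22 (limma adjusted p = 0.00066) and Pdgfrb, a growth factor receptor gene, lower at -1.77 (limma adjusted p = 4.03e-09). Their part in the Agrn result was not tested.

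**Figure D2:**
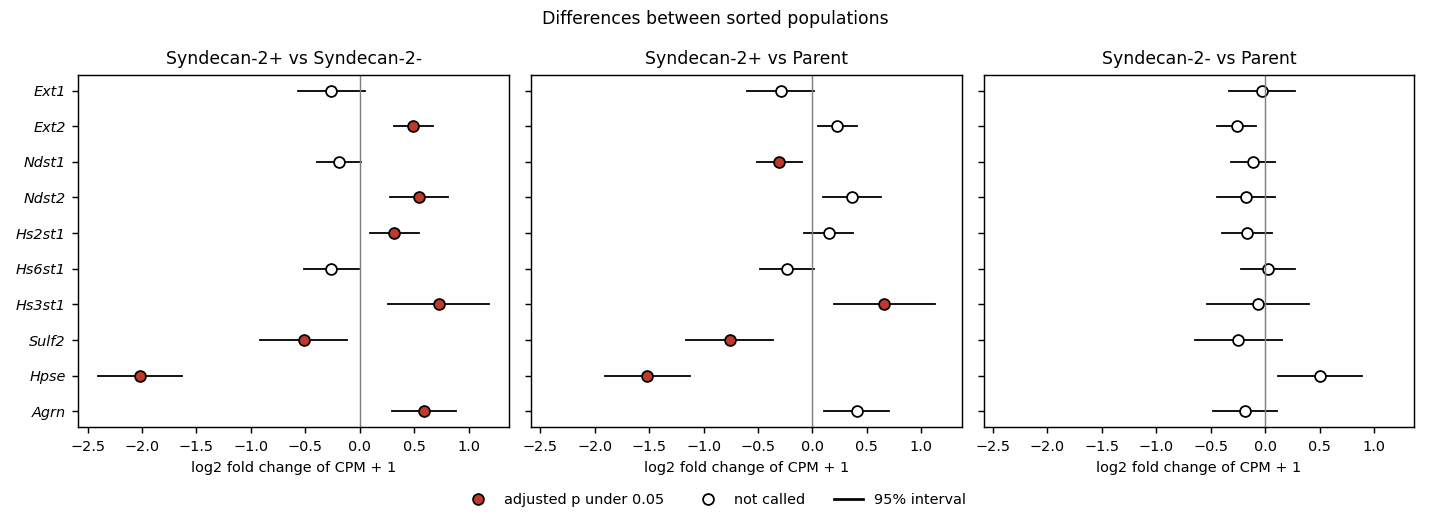
Log2 fold change of CPM + 1 for each gene (x axis) in the 3 comparisons, with 95% intervals from limma before adjustment. Red points are called under an adjusted p of 0.05: 7 genes between Syndecan-2+ and Syndecan-2-, 4 between Syndecan-2+ and Parent, and 0 between Syndecan-2- and Parent.

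Against Parent, Syndecan-2+ cells had 1 of the 10 genes called higher (Hs3st1) and 3 lower (Hpse, Sulf2 and Ndst1), where 9.90% of all genes were higher and 7.31% lower, or 17.2% in either direction. With the replicate block Ext2, Ndst2 and Agrn were called as well, and 4 of the 10 genes were higher. The shares of all genes given here are those of the fit without the block, so the count with the block has no share beside it. All 3 Syndecan-2+ libraries lay above all 3 Parent libraries for 5 genes, beside 19.5% of all genes, and below them for 4 genes, beside 12.6%. Parent is the gate from which both fractions were sorted, and its libraries serve in 2 of the 3 comparisons, so these are not separate evidence.

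Between Syndecan-2- and Parent libraries limma called 0 of the 10 genes in either direction, where 0.121% of all genes were higher and 2.54% lower, or 2.66% in either direction. At an unadjusted p under 0.05 there were 2 of 10, Ext2 and Hpse, beside 13.6% of all genes. The log2 fold change was -0.26 for Ext2 (limma adjusted p = 0.142) and 0.50 for Hpse (limma adjusted p = 0.210). Hpse was the gene whose 3 Syndecan-2- libraries all lay above the Parent libraries, and Ext2 and Agrn were the genes whose 3 all lay below. Beside them, 4.02% of all genes had Syndecan-2- libraries all above and 14.0% all below. The mean CPM of Parent lay between those of the sorted fractions for 7 of the 10 genes, and for 6 of the 7 called ones, against 93.9% of the 4205 genes called over the whole table. Ext1, Ndst1 and Sulf2 were the exceptions, with Parent above both fractions.

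Levels per kilobase set genes side by side and were summed over all listed transcripts, so short ones weigh more than their CPM. Hs2st1-002, 598 bases long and annotated to nonsense-mediated decay, held 7.45% of Hs2st1 CPM in Syndecan-2+ cells. The coding Hs2st1-001, of 6177 bases, held 82.7%. The order on coding transcripts alone differs. In Syndecan-2+ cells Hs2st1-001 averaged 13.5 CPM over its 6177 bases. Ndst1-201 averaged 29.1 CPM over 6070 bases and Ndst2-201 12.3 CPM over 3305 bases, so per kilobase Hs2st1-001 lay below both. The rest of that order is not given. Ext2 had the highest level of the 10 in each population, at 15.7, 10.8 and 14.1 CPM per kb in Syndecan-2+, Syndecan-2- and Parent cells. In Syndecan-2+ cells Hs2st1, Ndst1 and Hs6st1 followed at 4.62 to 4.91 CPM per kb and did not differ beyond their spread. Ndst2 came next at 3.74 CPM per kb and Ext1 at 2.52 CPM per kb, with no overlap between neighbours. Agrn at 1.92 and Hs3st1 at 1.37 CPM per kb overlapped. Hpse at 0.298 and Sulf2 at 0.265 CPM per kb were lowest and overlapped. Hpse changed place: at 2.16 CPM per kb in Syndecan-2- cells it stood directly below Ndst2 (2.48) and well above Agrn (1.15), and at 1.42 CPM per kb in Parent it stood above Agrn (1.05). Sulf2 was last in every population, at 0.265 CPM per kb in Syndecan-2+ cells, 0.408 in Syndecan-2- cells and 0.679 in Parent cells, where it overlapped Hs3st1 (0.726).

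The table lists 34 transcripts of the 10 genes, of which 18 passed the filter, and values of single transcripts depend on how reads were divided between them. Between Syndecan-2+ and Syndecan-2- cells 2 were called higher, beside 4.93% of the 31579 transcripts tested, and 1 lower, beside 3.09%. The higher ones were Ext2-001 at 0.45 (limma adjusted p = 0.0468) and Ndst2-201, the single listed Ndst2 transcript, at 0.54 (limma adjusted p = 0.0442). The lower one was Hpse-001, at -1.99 (limma adjusted p = 0.000327), which held 98.9% of Hpse CPM in Syndecan-2+ cells, 97.7% in Syndecan-2- cells and 99.4% in Parent cells. Agrn-006, the transcript that starts farthest upstream, held 73.8% of Agrn CPM in Syndecan-2+ cells, 81.4% in Syndecan-2- cells and 70.0% in Parent cells. Its log2 fold change of 0.45 was not called over all transcripts (limma adjusted p = 0.179), although its Syndecan-2+ values of 6.56, 5.98 and 8.40 CPM lay above its Syndecan-2- values of 4.54, 4.89 and 5.0 CPM.

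Sulf2 was less clear by transcript. Sulf2-001 held 90.9% of Sulf2 CPM in Syndecan-2+ cells, 69.1% in Syndecan-2- cells and 62.5% in Parent cells. Sulf2-004 held 0.854% in Syndecan-2+ cells, 14.6% in Syndecan-2- cells and 29.0% in Parent cells. Sulf2-001 alone had 0.908, 1.01 and 0.546 CPM in the Syndecan-2+ libraries and 2.07, 0.561 and 0.965 CPM in the Syndecan-2- libraries, which overlapped, and its log2 fold change was -0.22.

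The start regions of Hpse, Hs3st1 and Agrn, called genes with the largest fold changes, are shown because 1 listed transcript of each begins at or within 3 bases of the RefSeq start. These are Hpse-001, Hs3st1-002 and Agrn-006, which held 98.4%, 80.2% and 74.6% of the CPM of their gene over the 9 libraries, and the other listed transcripts begin elsewhere. RefSeq windows (GRCm38.p6) run from 250 bases before to 50 after the start, 5′ to 3′ on the gene's strand, and were found for 8 of the 10 genes. Capitals mark matches on either strand to the motifs searched. These were AGATAA for GATA factors, CCGGAAG for the ETS family, both TGTGGT and the related form TGCGGT for RUNX factors, CACGTG for the E-box and GGGCGG for the GC box, with overlapping matches each counted. The windows are Hpse at chr5:100719667-100719966, Hs3st1 at chr5:39644582-39644881 and Agrn at chr4:156197439-156197738, all on the minus strand.
Hpse: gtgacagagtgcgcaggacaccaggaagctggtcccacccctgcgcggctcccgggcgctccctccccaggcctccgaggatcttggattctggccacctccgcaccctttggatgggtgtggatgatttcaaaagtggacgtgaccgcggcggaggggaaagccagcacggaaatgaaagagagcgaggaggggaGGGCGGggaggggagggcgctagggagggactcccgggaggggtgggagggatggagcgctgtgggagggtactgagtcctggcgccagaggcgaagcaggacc
Hs3st1: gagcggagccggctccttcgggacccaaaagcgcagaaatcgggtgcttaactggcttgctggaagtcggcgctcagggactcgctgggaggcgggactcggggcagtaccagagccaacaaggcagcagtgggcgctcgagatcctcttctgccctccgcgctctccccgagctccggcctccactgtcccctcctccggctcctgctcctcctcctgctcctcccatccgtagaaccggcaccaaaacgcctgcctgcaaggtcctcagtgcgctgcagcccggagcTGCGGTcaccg
Agrn: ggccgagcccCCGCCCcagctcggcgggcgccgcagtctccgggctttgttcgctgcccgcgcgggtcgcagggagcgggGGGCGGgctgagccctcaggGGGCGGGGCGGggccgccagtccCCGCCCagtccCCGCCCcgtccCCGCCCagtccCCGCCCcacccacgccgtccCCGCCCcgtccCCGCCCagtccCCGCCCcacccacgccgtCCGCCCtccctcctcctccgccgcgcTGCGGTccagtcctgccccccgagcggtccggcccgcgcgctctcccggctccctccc

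The Hpse window held 1 GC box, 54 bases before the start, and none of the other letters. The Hs3st1 window held 1 RUNX match (TGCGGT), 40 bases after the start, and no GC box. The Agrn window, with a G and C content of 83.3% against a median of 52.7% over all windows, held 12 GC boxes and 1 RUNX match 8 bases before the start. Among all 32851 windows of the same length, 35.7% held a GC box, 22.4% a RUNX match, 11.2% the GATA letters, 8.86% the ETS letters and 7.15% the E-box. The windows of Ndst2 and of a second Agrn start held 3 and 2 GC boxes and none of the other motifs, and the nearest listed transcripts began 4235 and 152 bases away. No motif searched was in all 3 windows printed. A match is a description of letters and not a site in use.

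By a fixed rule, the genes with the profile nearest to the gene of the set that was called highest and the one called lowest were found, as the root mean square difference of centred log2(CPM + 1) over the 9 libraries. For Hs3st1 they were Zfp248 at 0.10, Rab23 at 0.13 and Tmem8 at 0.13. Rab23, a small GTPase gene, averaged 7.72 ± 0.804 CPM in the Syndecan-2+ libraries, 4.46 ± 0.691 CPM in the Syndecan-2- libraries and 5.27 ± 1.06 CPM in the Parent libraries (SD, n = 3 each). For Hpse they were Camk1d at 0.11, Itgal at 0.12 and Parp8 at 0.13. Itgal, which encodes the alpha chain of the leukocyte integrin LFA-1, averaged 14.9 ± 2.65 CPM in the Syndecan-2+ libraries, 63.4 ± 2.35 CPM in the Syndecan-2- libraries and 47.6 ± 3.88 CPM in the Parent libraries (SD, n = 3 each). Likeness of profile over 9 libraries of 3 populations is a description, since populations set most of the differences. The log2(CPM + 1) scale shrinks changes at low CPM, so near profiles need not share the fold change in CPM.

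Other genes of the pathway were taken from lists by step. Without the 10 genes and Sdc2 the heparan sulfate lists held 58 genes, of which 47 were in the table and 40 were tested. Between Syndecan-2+ and Syndecan-2- cells 7 of the 40 were higher, 5 lower and 28 not called, beside 20.5% and 9.51% of all genes, with a median log2 fold change of 0.13 beside 0.10 over all genes. Under TMM rescaling the count was 6 higher and 8 lower, where 1991 and 1987 of 13997 genes were called. With the replicate block it was 9 higher and 6 lower, since Slc26a2, Arsg and Gpc2 were called as well. The shares of all genes are those of the fit without the block. Against Parent 2 were higher, 6 lower and 32 not called in Syndecan-2+ cells, beside 9.90% and 7.31% of all genes, and with the replicate block Sdc3 was lower as well. Between Syndecan-2- and Parent 0 were higher and 1 (Tgfbr3) lower, beside 0.121% and 2.54%.

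In the lists for the linkage region, chain initiation and precursor supply, 4 of 23 tested genes were higher and 0 lower, beside 20.5% and 9.51% of all genes, so the higher share was near that of all genes. Of 7 linkage region genes, which make the sugar stem on the core protein, 1 was higher and 6 were not called (median 0.20). The higher one was Fam20b, the xylose kinase gene, at 26.5, 24.2 and 26.9 CPM in the Syndecan-2+ libraries, against 20.9, 17.8 and 20.04 CPM in the Syndecan-2- libraries (log2 fold change 0.38, limma adjusted p = 0.00509). Of 4 tested genes of chain initiation and polymerisation, Ext2 was the one called. Of 12 genes of precursor supply, which deliver sugar nucleotides and sulfate donor, 2 were higher and 10 were not called. Slc35d1, a transporter of nucleotide sugars into the endoplasmic reticulum, was higher by 0.67 (limma adjusted p = 0.00134), and Slc35a3, a Golgi transporter, was higher by 0.28 (limma adjusted p = 0.0489), a call that 12 of 22 alternatives ended. With the replicate block the sulfate transporter gene Slc26a2 was higher too (0.30, limma adjusted p = 0.0332).

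Of 16 genes for deacetylation, epimerisation and sulfation, 8 were in the table and 6 were tested, 5 of them among the 10 genes described above. The remaining one, Glce, encodes the epimerase that turns glucuronic into iduronic acid. It averaged 9.59 ± 0.789 CPM in the Syndecan-2+ libraries, 11.9 ± 1.51 CPM in the Syndecan-2- libraries and 12.9 ± 1.44 CPM in the Parent libraries (SD, n = 3 each). It was lower than in Parent (log2 fold change -0.40, limma adjusted p = 0.0401) and not called against Syndecan-2- cells (-0.28, limma adjusted p = 0.105). Of 4 editing genes, Hpse and Sulf2 were the 2 in the table.

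**Figure D3:**
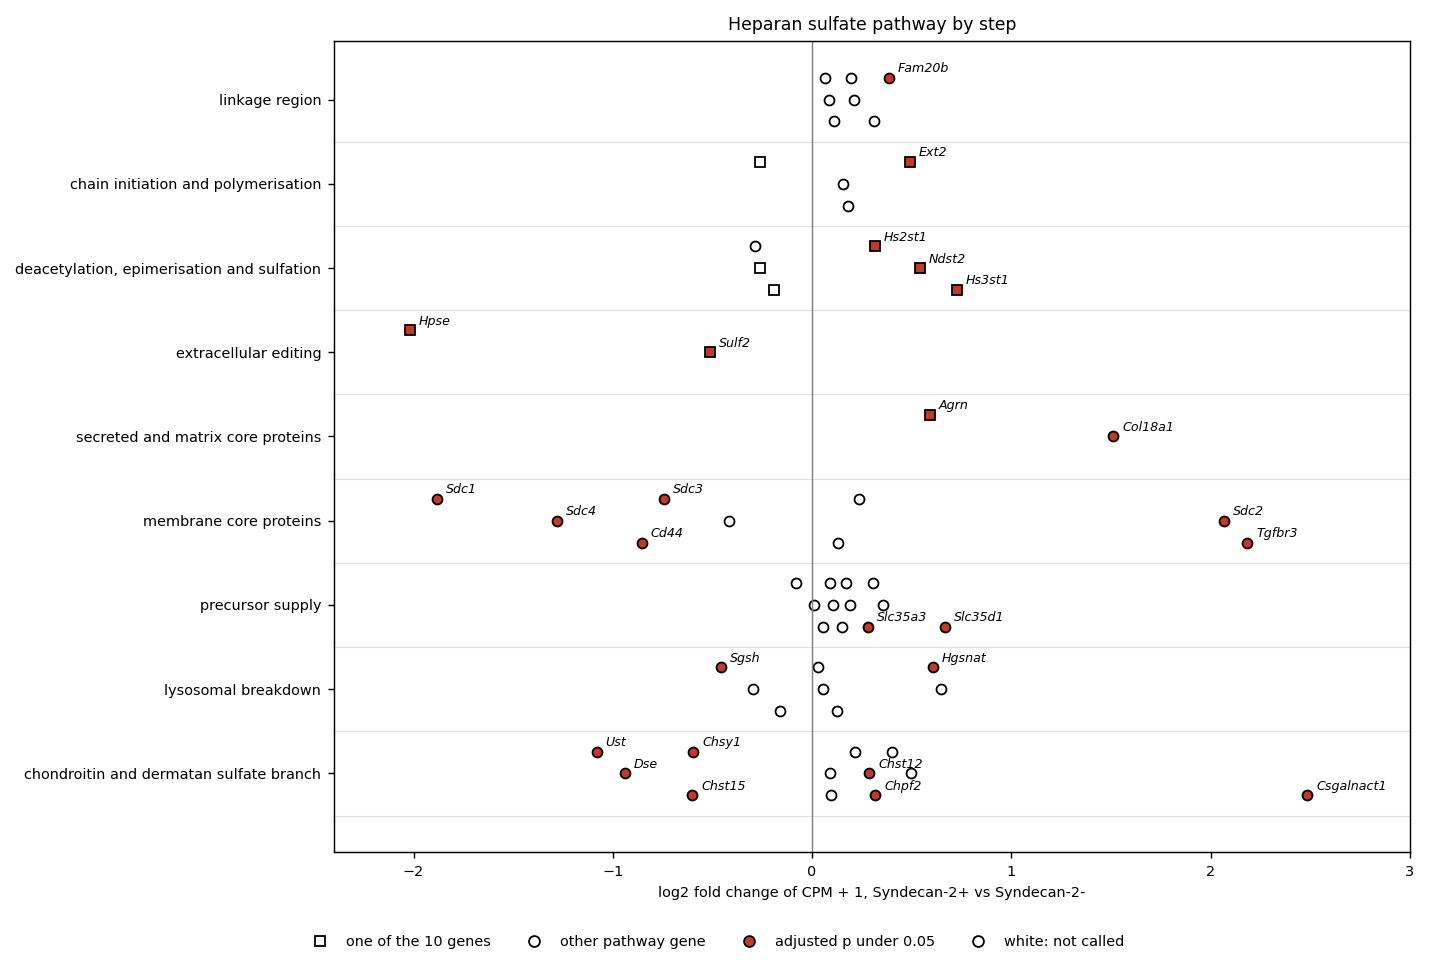
Log2 fold change of CPM + 1 between Syndecan-2+ and Syndecan-2- cells (x axis) of the tested genes in 9 pathway lists, all but 1 lysosomal gene, one list per row, with vertical offsets only to separate points. Squares are the 10 genes described, circles other genes, and red marks an adjusted p under 0.05; both editing genes lie left of 0, both matrix core protein genes lie right of 0, and the membrane core proteins spread from Sdc1 at -1.88 to Tgfbr3 at 2.18.

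Core protein genes moved in both directions. Of the secreted ones, which basement membranes hold, Agrn and Col18a1, the collagen XVIII gene, were higher, and Hspg2 (perlecan) was below the filter at 1.19, 0.873 and 1.22 CPM in the Syndecan-2+ libraries, against 0.281, 0.406 and 0.0526 CPM in the Syndecan-2- libraries. Col18a1 had 4.85, 4.51 and 5.56 CPM in the Syndecan-2+ libraries, against 1.01, 0.965 and 1.31 CPM in the Syndecan-2- libraries (log2 fold change 1.51, limma adjusted p = 3.99e-05). The sum of 7 endothelial markers was 91.8 to 100.04 CPM in the Syndecan-2+ libraries, 69.9 to 74.4 CPM in the Syndecan-2- libraries and 76.2 to 82.7 CPM in the Parent libraries. Of the 6 tested, Tie1, Kdr and Stab2 were higher and Pecam1 was lower between Syndecan-2+ and Syndecan-2- cells, and their part in these results was not tested. Of 9 tested membrane core proteins, 2 were higher, Tgfbr3 and Sdc2, and the rise of Sdc2 was set by the sort. Lower were 4 (Sdc1, Cd44, Sdc4 and Sdc3), and 3 were not called, beside 20.5% higher and 9.51% lower of all genes. Of those not called, Gpc2 was lower with the replicate block (-0.42, limma adjusted p = 0.0491).

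Tgfbr3 encodes betaglycan, a coreceptor for TGF-beta that can carry heparan sulfate. It had 79.7, 70.3 and 76.6 CPM in the Syndecan-2+ libraries, against 16.7, 13.7 and 17.3 CPM in the Syndecan-2- libraries (log2 fold change 2.18, limma adjusted p = 2.26e-11). Cd44, the hyaluronan receptor gene with heparan sulfate carrying variants, had 68.0, 65.4 and 68.1 CPM in the Syndecan-2+ libraries, against 128, 105 and 136 CPM in the Syndecan-2- libraries (-0.86, limma adjusted p = 4.70e-07). Sdc4 and Sdc3 were lower at -1.28 and -0.74 (limma adjusted p = 8.94e-06 and 0.00267). Sdc1, also in the plasma cell list, was lower at -1.88 while 5 of the 7 tested genes of that list were higher, or 6 with the replicate block, where Mzb1 was called (0.56, limma adjusted p = 0.0478).

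Of 9 lysosomal genes that break down heparan sulfate, 2 were higher, 1 was lower and 6 were not called, shares near the 20.5% and 9.51% of all genes. Hgsnat, an acetyltransferase of the lysosomal membrane, was higher by 0.61 (limma adjusted p = 0.0131) and lost the call without Syndecan-2+ replicate 1 (0.51) or Syndecan-2- replicate 2 (0.44), with quantile normalization (0.44) and with its top transcript (limma adjusted p = 0.0555). Arsg, a sulfatase gene, was not called (0.65, limma adjusted p = 0.0594) but was higher with the replicate block (limma adjusted p = 0.0268). Sgsh, the sulfamidase gene, was lower at -0.46 (limma adjusted p = 0.00895), with 7.94, 8.40 and 9.29 CPM in the Syndecan-2+ libraries, against 12.9, 12.8 and 10.7 CPM in the Syndecan-2- libraries. That call was lost with the top transcript (-0.31, limma adjusted p = 0.559) and without replicate 2 of every population (-0.41, limma adjusted p = 0.0709).

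The chondroitin and dermatan sulfate branch, which starts on the same linkage region, is given for comparison. Of its 12 tested genes 3 were higher, 4 lower and 5 not called, beside the same 20.5% and 9.51%, and with the replicate block Dsel was higher as well (0.49, limma adjusted p = 0.0387). Csgalnact1, which adds the first sugar that commits a chain to chondroitin, had 30.2, 28.8 and 31.8 CPM in the Syndecan-2+ libraries, 4.25, 3.81 and 5.89 CPM in the Syndecan-2- libraries and 13.9, 13.2 and 14.1 CPM in the Parent libraries. It was higher by 2.49 on the log2 scale between the sorted fractions (limma adjusted p = 1.68e-10). The chain-building gene Chsy1 (-0.60), the sulfotransferase genes Chst15 (-0.60) and Ust (-1.08) and the epimerase gene Dse (-0.94) were lower, with limma adjusted p of 1.42e-05 to 0.00146. Chpf2 (0.32) and Chst12 (0.29) were higher, and 10 and 13 of 22 alternatives ended those calls.

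**Figure D4:**
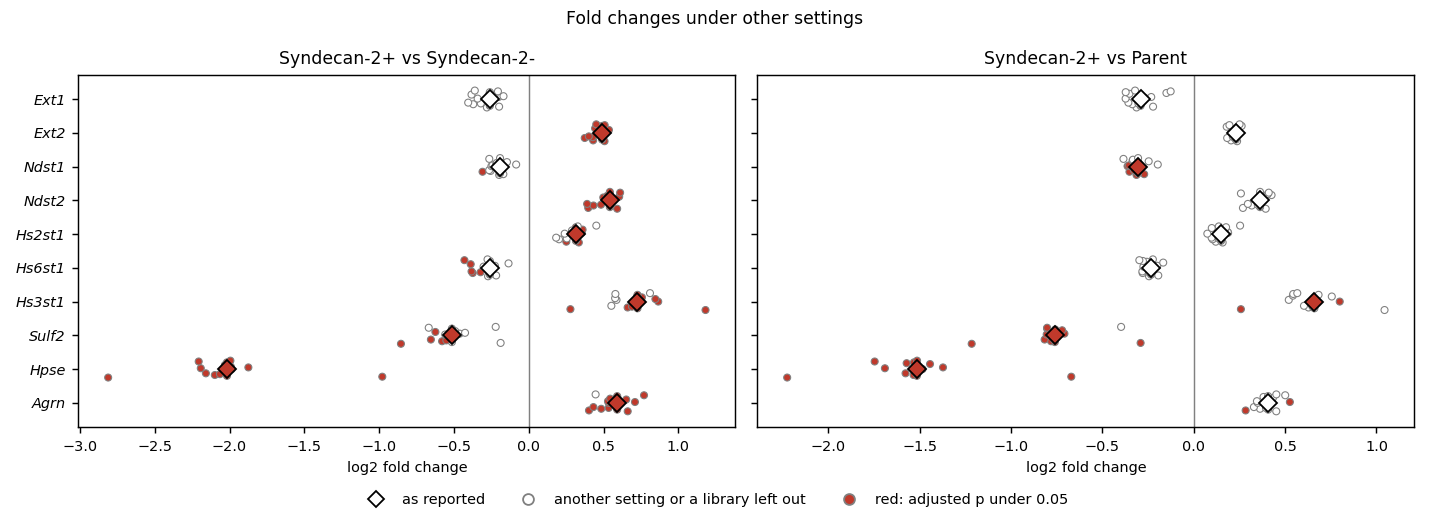
Log2 fold changes of the 10 genes (x axis) as reported (diamonds) and under other settings or without single libraries (circles), for Syndecan-2+ against Syndecan-2- (left) and against Parent (right). Red marks an adjusted p under 0.05, and circles of settings that leave the fold change as it is lie behind the diamond; Hpse stays between -2.81 and -0.98 on the left, Ext2 between 0.37 and 0.54, and no gene crosses 0 in either panel.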

How the data were processed

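The authors deposited 1 table of CPM per Ensembl transcript with 9 library columns, per the file headers. STAR, Bowtie2 and GRCm38 are named per the submitters' processing notes, without roles or versions, and which program counted the reads, over which total CPM was set and how transcripts were filtered is not given in the sources used here. In all, 58094 transcripts are listed. After subtraction of the 0.0001 offset, 67.9 to 69.5% of low values came out as whole reads (within 0.1 read), so no count test was used. The listed rows sum to 51.5 to 54.5% of what a full CPM column would. Read numbers in the text are CPM times reads per CPM and cover counting error only.

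CPM was summed per gene symbol, and limma 3.58.1 in R 4.3.3 (eBayes with trend, all 9 libraries in 1 fit) tested log2 of CPM plus a pseudocount of 1 for genes that reached 1 CPM in at least 3 libraries. P-values were adjusted by Benjamini-Hochberg over all genes and called under 0.05. The procedure was tested on simulated data. Python 3.11.15, pandas 2.3.3, scipy 1.17.1 and matplotlib 3.10.9 were used for tables, permutation tests and figures. Coordinates are those of the table, with the listed stop minus 1 as end. Same-numbered libraries of different populations deviated together from their population means (r of 0.117 to 0.259 over 9 pairs, against -0.206 to 0.00483 over 18 others). Deviations cancel within a population, so a positive r at the same number lowers the others, which are not separate evidence. The labels do not say what a replicate number marks, so the numbers may pair samples. The main fit has no pairing, and the fit with the block is given where it changes a call named in the text.

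The 10 genes, the pathway and marker lists and the tests were chosen with earlier results of these data known. Named are the 10 genes, Sdc2, up to 4 called genes per list with the smallest p, the 3 nearest profiles of 2 genes and single markers beside a result; Glce, Hspg2, the genes named for a call with the block and the markers below the filter were named after their values were seen. The alternatives were pseudocounts of 0.1 and 5, no filter or 10 CPM, TMM (trims of 0.3 and 0.05), equal sums, quantile normalization, limma's eBayes robust or with no trend, a fit of just the 6 libraries compared, the replicate block, each library left out and the top transcript of a gene. Leaving out replicate 2 of every population and the settings for ratios and lists were added after the data were seen. The values of 1 lysosomal gene are not reported here, though it is in the counts.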

Additional observations from a re-analysis of the deposited data

How the results depend on the processing

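Over the 10 genes and 3 comparisons, 570 of 648 alternative values kept direction and call, 53 lost the call, 12 gained one and 13 changed sign. Between Syndecan-2+ and Syndecan-2- cells, Ext2, Ndst2 and Hpse kept their calls in every alternative, Agrn lost it with its top transcript alone, Hs3st1 in 5 of 21, Hs2st1 in 8 of 22 and Sulf2 in 14 of 21. The causes were not tested. Read numbers were lowest for Hs3st1, Sulf2 and, in Syndecan-2+ cells, Hpse, and a single transcript can hold just a part of them. The part of depth in these calls was not tested.

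With the replicate block, 4 of the 10 genes were higher than in Parent in Syndecan-2+ cells, a count given without the share of all genes. In Syndecan-2- against Parent, 72 of all genes were higher and 613 lower with the block. The block changed no other call of the 10 genes. Genes of the 10 higher in Syndecan-2+ cells than in Parent (1) came to 0 with a pseudocount of 0.1, no filter, 10 CPM, TMM, equal sums, quantile normalization, the 6 libraries alone or without replicate 2 of every population, to 2 with a pseudocount of 5 or no trend, and to 0 to 1 without 1 library. Higher than in Syndecan-2- cells (5) were 3 with 10 CPM, with quantile normalization and without replicate 2 of every population, and 3 to 5 without 1 library. Lower than in Syndecan-2- cells (2) were 1 with a pseudocount of 5, no filter, robust eBayes or the 6 libraries, 0 with 10 CPM, 4 with TMM and 1 to 3 without 1 library. Hs3st1, Sulf2, Hpse and Agrn did not pass the filter of 10 CPM and were not tested under it. Counts with 10 CPM leave these genes out and do not show that their calls were lost. Lower than in Parent (3) was 1 with 10 CPM, and 2 to 3 were without 1 library. The call of Ndst1 against Parent was lost in 9 of 22 alternatives.

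Of the other pathway genes, 10 CPM, which tests fewer genes, left 4 higher and 3 lower than in Syndecan-2- cells and 1 higher than in Parent. TMM and quantile normalization gave 8 lower than in Syndecan-2- cells. Lower than in Parent were 3 with no filter or without replicate 2 of every population, and 3 to 6 without 1 library.

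Over all genes, 10 CPM, which tests fewer genes, left 1749 higher and 860 lower in Syndecan-2+ than in Syndecan-2- cells and 790 higher than in Parent. Genes higher in Syndecan-2- than in Parent (17) were 11 with 10 CPM, 48 with TMM, 29 with equal sums, 31 with quantile normalization, 9 with no trend, 26 with robust eBayes, 35 with the 6 libraries, 7 without replicate 2 of every population and 7 to 29 without 1 library. Lower ones (356) were 237 with quantile normalization, 221 without replicate 2 of every population and 210 to 336 without 1 library.

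Sign changes were all between Syndecan-2- and Parent, in genes not called. Ext1 came to 0.035 with TMM, 0.017 with equal sums, 0.047 with quantile normalization, 0.039 with its top transcript, 0.079 without replicate 2 of every population, and -0.12 to 0.11 without 1 library. Hs3st1 came to 0.051 with quantile normalization and to -0.19 to 0.083 without 1 library. Hs6st1 came to -0.099 to 0.15 without 1 library. Agrn with its top transcript alone was at 0.0052. The Ext2 to Ext1 log2 difference between Syndecan-2+ and Syndecan-2- libraries was 0.79 without length and 0.87 with top transcripts, and against Parent 0.62 with top transcripts.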
